A study of Mus musculus with 9 samples.

Results

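The 10 genes described here encode the inflammasome and the machinery of pyroptosis. They were chosen by name, as the rows of the deposited table whose symbol is Nlrp3, Nlrc4, Nlrp1b, Aim2, Pycard, Casp1, Casp4, Gsdmd, Gsdme or Ninj1. All 10 symbols were found, each in 1 row of the 49317 in the table. RNA came from CD103+ dendritic cells (DCs) of the lungs of C57/BL6j mice, which had been given bleomycin, an agent that provokes fibrosis in rodent lungs, for 7 days, and isolated with magnetic beads from collagenase-digested tissue. In 5 samples, called before culture here, RNA was prepared directly. In 4 samples, called after culture, the cells were first kept ex vivo for 18 h in RPMI with 10% FBS and 1% pen/strep. Bleomycin treatment, strain and isolation were shared by both groups, and no untreated lung is used here. Nothing in the labels says whether each sample came from a separate mouse, so p-values measure the spread between these samples.

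An inflammasome is a cytosolic complex in which a sensor protein, such as NLRP3, NLRC4, NLRP1B or AIM2, recruits caspase-1, often through the adaptor ASC (the product of Pycard). Caspase-1 matures the cytokines IL-1β and IL-18 and cuts gasdermin D, whose freed part forms pores in the plasma membrane. Mouse Casp4 encodes caspase-11, which binds lipopolysaccharide in the cytosol and also cuts gasdermin D. Gasdermin E is another member of that family, and NINJ1 ruptures the membrane of the dying cell. In myeloid cells, NLRP3 is known as a sensor whose transcript is induced by signals through NF-κB, a step called priming.

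Values are the authors' normalized counts, which are gene counts divided by 1 size factor per sample. They are not corrected for gene length. Depth in rows with a symbol ran from 14.7 to 28.8 M reads before and from 26 to 35.3 M reads after culture. Each of the 10 genes had at least 209 reads in every sample, so counting error was at most 6.92% of a value. Standard errors come from the spread between replicates, which includes counting error. For Casp1 before culture the coefficient of variation was 7.00%, against a counting error of up to 6.9%. Reads carry no molecular identifiers, so counting error is a lower limit. As a check of the label, 12 genes of type 1 conventional DCs, most of which carry CD103 in the lung, summed to between 152861 and 181058 before and between 33671 and 37092 after culture. Of these, 10 were lower and 2 higher after culture. Itgae, which encodes CD103 itself, was 10.5-fold lower (18138 ± 1537 against 1727 ± 335), and transcripts of other cell types were present in both groups (values below).

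Casp1 and Casp4 are neighbours on chromosome 9, at chr9:5298517-5307265 and chr9:5308828-5336783 on the plus strand, with 1562 bases between them. Nlrp3 lies at chr11:59541568-59566956 (plus) and Nlrp1b at chr11:71153102-71230733 (minus). The other genes are Aim2 at chr1:173350879-173466040 (plus), Gsdme at chr6:50188888-50263862 (minus) and Pycard at chr7:127989708-127993867 (minus). Ninj1 is at chr13:49187485-49196244 (plus), Gsdmd at chr15:75862327-75867408 (plus) and Nlrc4 at chr17:74425438-74459142 (minus). These are whole gene spans in GENCODE M21 (GRCm38.p6). At most 2.08% of the 50-base windows of the longest transcript of any of the 10 genes occur in another gene, with Nlrp1b the highest (mostly Nlrp1a). Exons of Pycard overlap those of Gm45205 on the opposite strand over 12.8% of their length. Whether the counting used strand is not given in the sources used here, so reads from that stretch cannot be assigned to Pycard alone.

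RefSeq promoter sequences (GRCm38.p6) were found for 9 of the 10 genes. The 3 shown are those of Nlrp3, the gene that fell most, Casp1, the gene that rose most, and its neighbour Casp4. They run 5′ to 3′ on the gene's strand, from 250 bases before the RefSeq start up to the first annotated transcript base, and capitals mark matches to the NF-κB type motif GGGANNNNCC.
Nlrp3 (chr11:59541319-59541567, plus): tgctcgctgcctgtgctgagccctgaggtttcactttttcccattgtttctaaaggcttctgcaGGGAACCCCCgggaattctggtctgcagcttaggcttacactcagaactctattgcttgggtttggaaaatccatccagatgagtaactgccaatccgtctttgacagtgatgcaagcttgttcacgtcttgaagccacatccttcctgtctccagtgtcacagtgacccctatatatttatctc
Casp1 (chr9:5298267-5298516, plus): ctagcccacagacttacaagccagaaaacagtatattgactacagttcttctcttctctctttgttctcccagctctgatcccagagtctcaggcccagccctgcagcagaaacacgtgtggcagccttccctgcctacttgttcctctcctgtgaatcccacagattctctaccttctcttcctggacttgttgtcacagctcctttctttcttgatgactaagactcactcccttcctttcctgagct
Casp4 (chr9:5308599-5308827, plus): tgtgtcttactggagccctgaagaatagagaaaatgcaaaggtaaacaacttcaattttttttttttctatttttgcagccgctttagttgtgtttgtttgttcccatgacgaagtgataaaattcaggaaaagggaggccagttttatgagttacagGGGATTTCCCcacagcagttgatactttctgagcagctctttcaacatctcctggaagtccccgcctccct
The match in Nlrp3 spans positions −186 to −177 and that in Casp4 −92 to −83, counted back from the RefSeq start. A second RefSeq entry for Nlrp3 (chr11:59542436-59542685) held no match, and a second one for Casp4 held the same match at −103 to −94 from its own start. On both strands of all 32851 RefSeq promoters, 17.6% held this motif in the same 250 bases. Among the 12 promoter entries of the 9 genes, only those named above for Nlrp3 and Casp4 held it. The AP-1 type motif TGANTCA (6.75% of promoters), the interferon-stimulated response element type GAAANNGAAA (2.98%) and the interferon-gamma activated site type TTCNNNGAA (7.02%) had no match in any of the 12 promoter entries of the 9 genes, and no 2 motif matches overlapped. These matches describe letters only.

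Culture was followed by a fall in 2 sensors and a rise in the caspase and gasdermin that act downstream of them. Nlrp3 was 14.9-fold and Nlrp1b 2.71-fold lower after culture, while Casp1 was 2.68-fold and Gsdmd 2.01-fold higher. Nlrc4, Pycard and Casp4 rose by less, and Aim2, Gsdme and Ninj1 did not pass the test. In all, 5 of the 10 genes were higher and 2 lower at a limma adjusted p under 0.05, with p adjusted over all 18202 genes tested. Over all tested genes, 34.2% were higher and 34.6% lower, or 68.8% changed in either direction. The count of 7 in 10 is therefore close to what the table holds as a whole. The groups did not overlap for these 7 genes, against 57.3% of all tested genes. The median log2 fold change (after minus before culture, on log2 of value + 1) over all tested genes was 0.0065, so changes are read against 0. In bulk RNA, fewer cells of a type and less RNA per cell cannot be told apart.

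**Figure D1:**
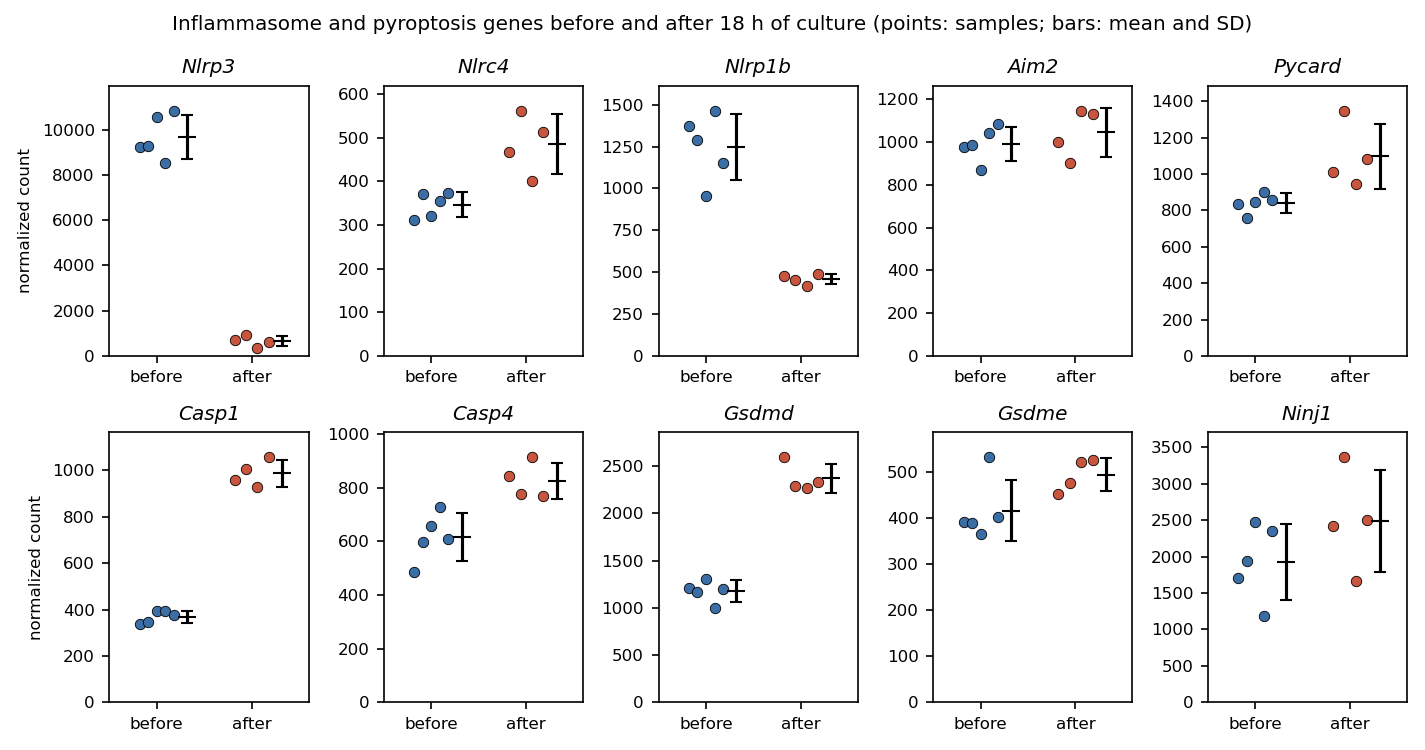
Normalized counts (linear axes from 0) of the 10 genes in each of the 5 samples before and 4 samples after culture, with group mean and SD. Nlrp3 fell from between 8551 and 10855 to between 369 and 918, Casp1 and Gsdmd rose with no overlap, and the groups overlap for Aim2, Gsdme and Ninj1.

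Among the sensors, Nlrp3 moved most. Its normalized counts in replicates 1 to 5 before culture were 9239.7, 9275, 10571, 8551 and 10855, and in replicates 1 to 4 after culture 716, 918, 369 and 597. Every sample after culture was far below every sample before it, and replicate 3 after culture was the lowest. Nlrp3 changed by −3.97 in log2 (SE 0.194, limma adjusted p = 9.22e-10), the 250th lowest of the 18202. In relative terms Nlrp3 varied more among samples after culture, with a coefficient of variation of 35.3% against 10.1% before.

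Nlrp1b encodes a sensor that the peptidases DPP8 and DPP9 hold in check. It gave 1370.2, 1287, 955, 1465 and 1155 in replicates 1 to 5 before culture. After culture its 4 replicates gave 474, 456, 418 and 490.4. The groups were apart and the values after culture were tightly grouped (log2 fold change −1.42, SE 0.116, limma adjusted p = 1.34e-07).

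Nlrc4, which assembles with NAIP proteins bound to bacterial flagellin or secretion system parts, went the other way at a lower level. It had 310.4, 370.002, 321, 355 and 374 normalized counts before and 467, 562, 401 and 512 after culture. All samples after culture were above all before it, by 1.40-fold on the group means (log2 fold change 0.48, SE 0.112, limma adjusted p = 0.00176). Aim2, which binds DNA in the cytosol, had 978, 985, 868, 1041 and 1085 before and 1002, 903, 1148 and 1131 after culture. The ranges overlapped, with 2 of the 4 samples after culture above the highest before it, and the log2 difference of 0.07 had a 95% interval from −0.127 to 0.276 (limma adjusted p = 0.494).

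Pycard, the adaptor, had 836, 757, 847, 903 and 859 normalized counts before and 1009.6, 1350, 945 and 1085 after culture. Its lowest sample after culture lay just above its highest before it. The log2 fold change was 0.37 (SE 0.102, limma adjusted p = 0.00513).

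Casp1 had 336, 346, 392, 392 and 376 normalized counts before and 956, 1005, 927 and 1057 after culture. The groups lay far apart relative to their spread, with coefficients of variation of 7.00% and 5.78%. Its rise of 1.42 in log2 (SE 0.0845, limma adjusted p = 6.20e-09) stood at percentile 91.8 of the changes of all tested genes. Its neighbour Casp4 had 488, 599, 659, 727 and 610.4 before and 843, 775, 914 and 768 after culture. The groups did not overlap but came close, at 727 and 768. For Casp4 the log2 fold change was 0.43 (SE 0.110, limma adjusted p = 0.00356).

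Gsdmd, the main pore-forming substrate of both caspases, had 1211, 1171, 1306, 999 and 1203 normalized counts before culture. After culture it had 2595, 2289.6, 2267 and 2328. Every sample after culture exceeded every sample before it (log2 fold change 1.01, SE 0.0844, limma adjusted p = 1.80e-07). Gsdme had 391, 389, 366, 531 and 401 before and 452, 475, 521 and 525 after culture. Replicate 4 before culture was above all 4 samples after culture, and the other 4 were below them. Gsdme did not pass the test (log2 difference 0.26, 95% interval 0.0117 to 0.502, limma adjusted p = 0.0591), but did so without that sample (0.35, adjusted p = 0.00337).

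Ninj1 was the most variable of the 10 genes before culture. Its normalized counts were 1709, 1937, 2475, 1178 and 2348 before and 2416, 3365, 1662 and 2499 after culture. The ranges overlapped, and the log2 difference of 0.37 had a 95% interval from −0.0954 to 0.833 (limma adjusted p = 0.143). Without replicate 3 after culture the difference was 0.55 and passed (limma adjusted p = 0.0281). It was 0.20 without replicate 4 before and 0.21 without replicate 2 after culture, and did not pass in either fit (adjusted p 0.326 and 0.396). With the number in the library name as a replicate block Ninj1 passed (0.38, limma adjusted p = 0.00109), though no label says that these numbers pair samples.

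GC content moved with the contrast, and the calls of 5 members changed with a correction for it. Over all tested genes with an annotation, the median log2 fold change fell from 0.438 in the fifth with the lowest GC content to −0.418 in the fifth with the highest. The longest transcripts of Casp4 and Gsdme had 38.1% and 38.7% GC and that of Ninj1 59.4%. When each sample was corrected for its smooth trend over GC content and length, Nlrp3 (−3.90), Nlrp1b (−1.45), Nlrc4 (0.32), Casp1 (0.98) and Gsdmd (1.27) kept their direction and their call. Pycard (0.17, limma adjusted p = 0.120) and Casp4 (−0.17, adjusted p = 0.0912) no longer passed, and Casp4 changed sign. Aim2 (−0.28, adjusted p = 0.0115) and Gsdme (−0.23, adjusted p = 0.0228) changed sign and passed as lower, and Ninj1 (0.87, adjusted p = 0.00125) passed as higher. Under this correction 4 of the 10 genes were higher and 4 lower. Over all 17564 genes in that fit, 11745 changed in either direction. Whether the GC trend is technical was not tested.

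**Figure D2:**
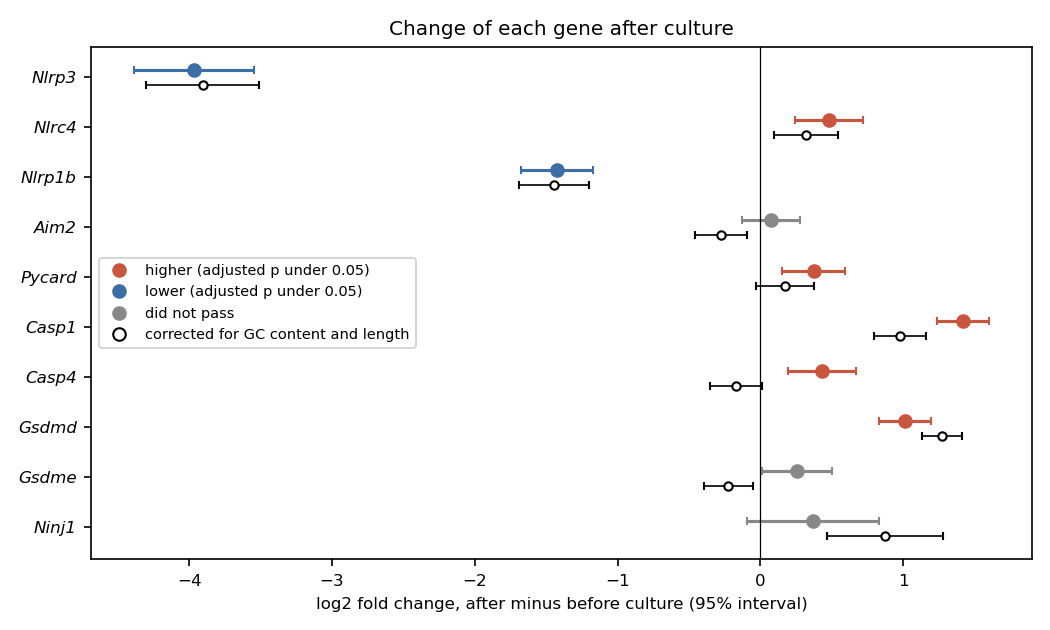
Log2 fold change after minus before culture (x axis) of each gene with its 95% interval, as measured (filled) and after correction for GC content and length (open). Nlrp3 at −3.97 and Nlrp1b at −1.42 lie far below 0 and Casp1 and Gsdmd at or above 0.98 in both, while Aim2, Casp4 and Gsdme change sign with the correction.

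Ratios within a sample do not depend on the scaling between samples, and were used to test whether related genes changed unequally. They are of normalized counts, so only their change is read. The log2 ratio of Casp4 to Casp1 went from 0.73 ± 0.131 before (SD, n = 5) to −0.26 ± 0.198 after culture (SD, n = 4). That of Gsdme to Gsdmd went from −1.51 ± 0.351 to −2.26 ± 0.182. That of Nlrp3 to Aim2 went from 3.29 ± 0.206 to −0.75 ± 0.702. None of the 3 ratios overlapped between the groups. An exact two-sided permutation test gave p = 0.0159 for each, also after adjustment over the 3 ratios, which is the smallest value that 5 against 4 samples allow. The genes were chosen with earlier results of these data known, and each shift follows from the log2 fold changes given above. These p-values are therefore not independent support for those changes. With the GC and length correction the shifts from before to after culture were −1.15, −1.50 and −3.63, in place of −0.99, −0.75 and −4.04. Casp1 thus rose relative to Casp4 and Gsdmd relative to Gsdme with or without it.

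**Figure D3:**
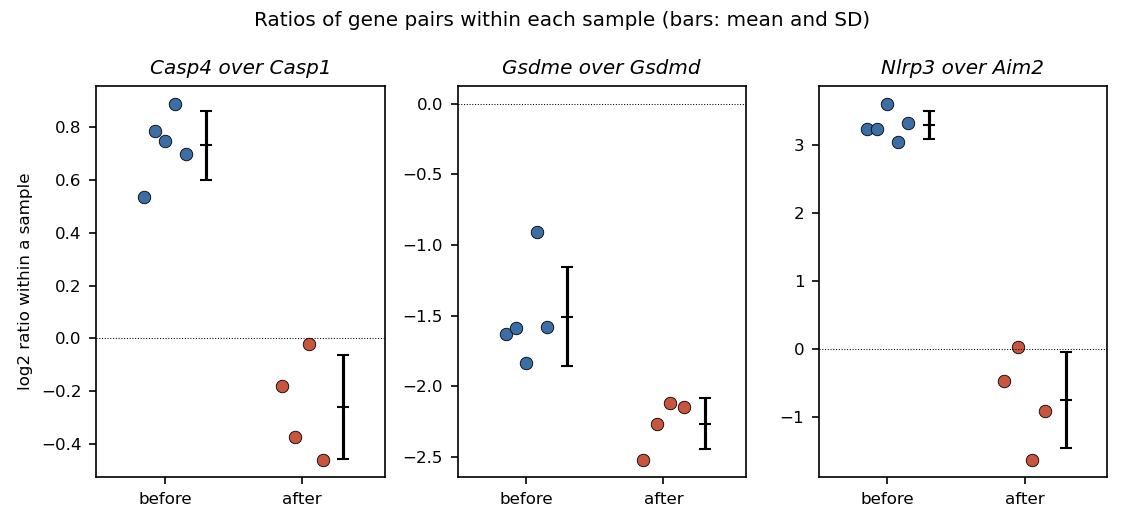
Log2 ratio of normalized counts of 3 gene pairs within each of the 9 samples (y axes do not share a scale), with group mean and SD. In each panel the 4 samples after culture lie below the 5 before culture.

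Levels of different genes were compared per kilobase of exon (union of all annotated exons). Before culture Nlrp3 was the most abundant of the 10 at 2390 ± 240.4 normalized counts per kb (SD, n = 5), followed by Ninj1 at 1229 ± 332 and Gsdmd at 496 ± 47.2. Each of these was apart from the next in every sample. Aim2 (283), Casp1 (246), Pycard (221), Nlrp1b (198) and Casp4 (166) formed a run in which each overlapped its neighbour. Nlrc4 (72.0) and Gsdme (32.6) were lowest. After culture Ninj1 (1583 ± 444) and Gsdmd (997 ± 64.1), whose ranges overlapped, and Casp1 (659 ± 38.1) led the order (SD, n = 4). Nlrp3 stood in seventh place at 160.3 ± 56.5, overlapping Casp4 (222) above and Nlrc4 (101) below. Of the summed level per kb of the 10 genes, Nlrp3 held 44.0 to 45.6% in the samples before and 2.44 to 4.48% in those after culture. Casp1 held 4.24 to 5.67% and then 13.3 to 16.6%. With the longest transcript or the coding length as the gene model, Nlrp3 still led by group mean before culture. Ninj1 and Gsdmd were among the first 3 after it, but most of the lower places changed. With coding length (3099 bases for Nlrp3 and 630 for Ninj1), Nlrp3 and Ninj1 overlapped before culture. There Ninj1 was above Nlrp3 in replicates 2, 3 and 5. The shares given above hold for the exon union only.

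**Figure D4:**
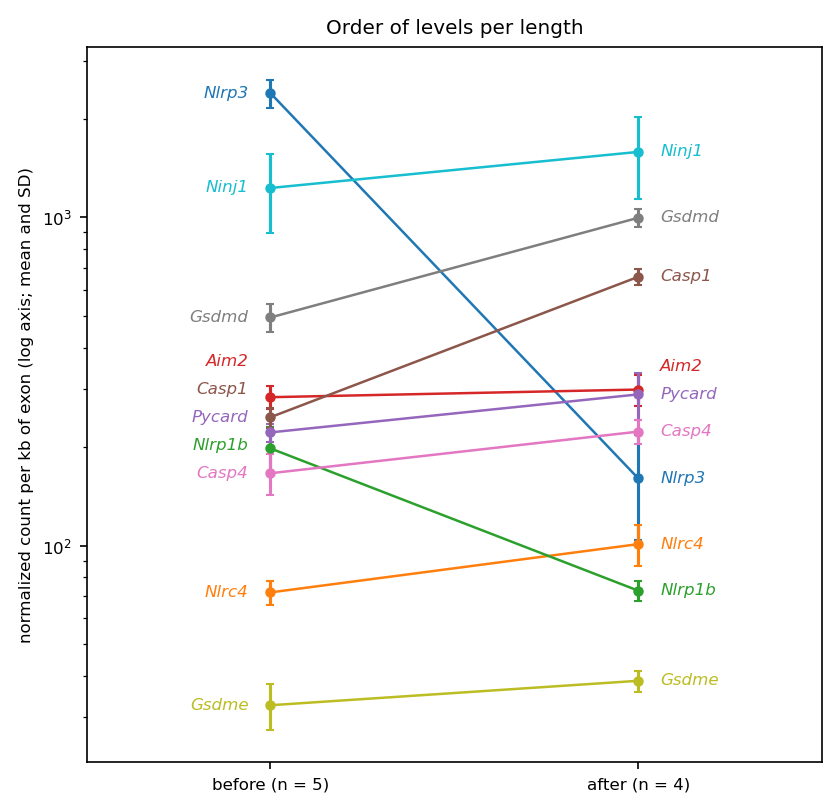
Mean normalized count per kb of exon (log axis, with SD) of the 10 genes before and after culture. Nlrp3 drops from 2390 to 160.3 per kb and from first to seventh place, while Casp1 rises from 246 to 659 and Gsdmd from 496 to 997.

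Some members varied together with markers of other cells within a group. After culture, replicate 3 was the lowest sample for 7 of the 10 genes and replicate 2 the highest for 4. The summed level of 16 monocyte and macrophage markers was 43751, 59005, 31546 and 43459 in replicates 1 to 4 after culture. Nlrp3 ranked these 4 samples in the same order as that sum, with replicate 2 highest and replicate 3 lowest. Before culture the orders differed: Nlrp3 was highest in replicate 5, the second lowest in the sum, and the sum was highest in replicate 3. In that group, replicate 4 was lowest in Nlrp3, Gsdmd, Ninj1 and the sum (63263, against 84962 to 105974 in the other 4). It was highest in 5 of the 10 genes. Other sums also ranked samples as some members did. Before culture, 12 neutrophil markers summed to 14288, 17001.5, 23848, 13842 and 22810 in replicates 1 to 5, the order of Ninj1. After culture, the 6 type 2 DC markers gave sums of 22753, 29714, 16602 and 25595. This was the order of Nlrc4, Pycard and Ninj1. In the same group Casp1 had the order of the neutrophil sum (8702, 14122, 6922 and 14851). Aim2 had that of the T cell sum (5958, 5400, 7158 and 6246) and the alveolar epithelial sum (2664, 2623, 6844 and 3030). No other member ranked the samples of a group in the order of a sum given here. With 4 samples few orders are possible, so like orders can arise by chance. These likenesses were not tested.

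Markers of several other cell types also moved between the groups. Of the 16 monocyte and macrophage markers, 9 were lower and 1 higher after culture, and none was at or below 3 reads in every sample of a group. Of 12 neutrophil markers, 10 were tested, 9 were lower and 1 (Mmp8) was higher. Their sum was 13842 to 23848 before and 6922 to 14851 after culture, and without Mmp8 it was 13460 to 23300 before and 830 to 1719 after culture. Mmp8 itself went from 401 ± 93.4 to 9876 ± 3673, and Ly6g had 0 reads in all 4 samples after culture, which allows up to 3 reads in each. All 8 endothelial and all 6 fibroblast markers were lower, with sums from 24569 to 35764 and from 15611 to 28377 before, and from 3286 to 4320 and from 2206 to 4422 after culture. Of the 8 alveolar epithelial markers, 7 were lower (sums 16399.9 to 33612 and 2623 to 6844). All 6 NK cell markers were lower (sums 1319.7 to 2781 before and 263 to 459 after culture), whereas the T and B cell lists held fewer such genes. Of 8 T cell markers 1 was higher and 2 lower (sums 5909 to 6694 before and 5400 to 7158 after), and of 6 B cell markers also 1 and 2 (8036 to 11796 and 5962 to 8330). Of 6 type 2 DC markers 1 was higher and 4 lower, while their sums overlapped (19651 to 27256 and 16602 to 29714). The part of these shifts in the changes of Nlrp3 and the other genes was not tested.

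Other genes of the pathway were taken from 6 lists holding 93 genes, of which 84 were tested. Of these, 39 (46.4%) were higher and 29 (34.5%) lower, against 34.2% and 34.6% of all genes. With the GC and length correction 36 were higher and 29 lower, while 11745 of all 17564 genes in that fit changed in either direction. Genes said to rise or fall passed a limma adjusted p of 0.05, and values are group means ± SD (n = 5 and n = 4). Among other sensors and adaptors, 9 of 15 tested genes were lower and 4 higher, with a median log2 fold change of −0.44. Nlrp12 fell 14.7-fold (218.9 ± 67.3 against 14.9 ± 10.9, SD, n = 5 and n = 4) and Nlrp6 13.3-fold (54.9 ± 9.36 against 4.12 ± 2.46). With a pseudocount of 8 their log2 fold changes of −4.11 and −3.57 became −3.40 and −2.39. Among the NAIP proteins, which bind the ligands of the NLRC4 inflammasome, Naip2 was 1.40-fold higher (1943 ± 34.0 against 2721 ± 365) and Naip1 2.56-fold higher (41.5 ± 4.50 against 106.4 ± 32.7). Naip5 was 1.45-fold lower (1335 ± 56.7 against 918 ± 66.5). Naip6 was 1.51-fold lower (2005 ± 174 against 1329 ± 67.8). These 4 genes share 19.4 to 36.8% of their 50-base windows with other genes, most of all other Naip genes, so their separate values are uncertain. Zbp1, a sensor of Z-form nucleic acid, rose from 877 ± 70.2 to 1374 ± 481, a log2 fold change of 0.59 that was 0.38 without replicate 2 after culture. Mefv, which encodes pyrin, was at 649 ± 194 and 642 ± 152, with a 95% interval of its log2 difference from −0.449 to 0.459.

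Of 18 regulators of NLRP3 activation, 8 were higher and 5 lower, with a median of 0.10. Fbxl2, a ubiquitin ligase subunit, rose from 141 ± 17.6 to 323 ± 25.9, and Tlr4, the receptor of lipopolysaccharide, from 962 ± 74.3 to 2205 ± 625 (log2 fold change 1.16, or 0.66 after the GC and length correction). Exons of Fbxl2 overlap those of Ubp1 on the opposite strand over 11.2% of their length, and exons of Myd88 those of Acaa1a over 11.3%. Nek7, a kinase that binds NLRP3, rose from 2302 ± 114 to 3417 ± 369.7 (0.56), but did not pass with that correction (0.13, limma adjusted p = 0.123). P2rx7, the ATP-gated channel upstream of NLRP3, rose from 1156 ± 140.2 to 1777 ± 467 with overlapping groups. Myd88, the adaptor of Toll-like and IL-1 receptors, fell from 3729 ± 414 to 1475 ± 347, and Nfe2l2, which encodes NRF2, from 10977 ± 491 to 6652 ± 1092.

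The list of the caspase-11 route held 13 genes, of which 11 were higher and 0 lower, with a median of 0.90. It has 11 guanylate binding proteins and immunity-related GTPases, which act on bacterial membranes and help expose lipopolysaccharide to caspase-11. Of these GTPases 10 were higher in limma and Igtp did not pass, with a median of 1.00. Of the 2 transcription factors on the list, Irf2 was higher and Irf1 did not pass. At an unadjusted limma p under 0.05 also 0 of the 13 were lower, as with edgeR and DESeq2. Gbp5 rose 13.1-fold (561 ± 28.8 against 7334 ± 1121) and Gbp2 9.99-fold (1038 ± 135 against 10367 ± 343). Gbp6 is uncertain, since 59.7% of its windows occur in other genes, mostly Gm43302.

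Among other caspases, gasdermins and necroptosis genes, 7 of the 15 reported here were tested, 3 were higher and 4 lower (median −0.39). Casp8, the initiator caspase of death receptors, rose 1.27-fold (1486 ± 36.4 against 1894 ± 160.2). Casp9 rose 1.75-fold (797 ± 69.4 against 1392 ± 109). Mlkl, the pore-forming effector of necroptosis, rose from 154 ± 13.5 to 439 ± 134. Gzmb, a protease of cytotoxic lymphocytes, fell from 337 ± 68.3 to 44.4 ± 25.1, beside a fall of all 6 NK cell markers (sums 1319.7 to 2781 before and 263 to 459 after culture). Casp12 fell from 47.9 ± 5.28 to 12.2 ± 7.46 (log2 fold change −2.09, or −2.72 with the GC and length correction). The 6 other gasdermins on the list, Gsdma, Gsdma2, Gsdma3, Gsdmc, Gsdmc2 and Gsdmc4, and Ninj2 and Elane were too low to be tested, so Gsdmd and Gsdme were the only gasdermins of those listed that were tested.

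Of 16 caspase inhibitors, membrane repair genes and dampeners, 10 were higher and 2 lower, with a median of 0.29. Serpinb1a, which encodes an inhibitor of neutrophil serine proteases, rose 12.5-fold (350 ± 34.1 against 4364 ± 527). Serpinb1b rose from 3.35 ± 1.16 to 36.5 ± 3.26, and its log2 fold change of 3.15 was 1.98 with a pseudocount of 8. Tnfaip3, which encodes the NF-κB inhibitor A20, fell 5.17-fold (32369 ± 1912 against 6264 ± 336), and Nos2, the inducible nitric oxide synthase, from 155 ± 47.1 to 10.5 ± 4.94 (log2 fold change −3.81, or −3.13 with a pseudocount of 8).

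Of 15 cytokine substrates, alarmins and their receptors, 9 were lower and 3 higher, with a median of −0.65. Il1b, the substrate of caspase-1 for IL-1β, fell 5.88-fold (22902 ± 3456 against 3895 ± 851, log2 fold change −2.57, SE 0.145, limma adjusted p = 3.64e-09). Il18, the other cytokine substrate, fell 1.92-fold (374 ± 90.1 against 194 ± 65.9) and Il1a 1.62-fold (1064 ± 183 against 658 ± 162), both with overlapping groups. For Il1a the log2 fold change of −0.71 became −1.15 with the GC and length correction, and its exons overlap those of Gm14023 on the opposite strand over 11.2% of their length. Il1r2, the decoy receptor of IL-1, fell 22.6-fold (4454 ± 347 against 197 ± 38.3). Il18bp, which encodes the soluble inhibitor of IL-18, rose 3.06-fold (283 ± 9.31 against 867 ± 71.4), and Lgals3, which encodes galectin-3, 3.48-fold (12208 ± 1745 against 42520.4 ± 11115). Il1rn, the IL-1 receptor antagonist, was at 4683 ± 1266 and 6285 ± 2446 and did not pass (log2 fold change 0.39, limma adjusted p = 0.160). Without replicate 3 after culture it passed as higher (0.59, limma adjusted p = 0.0267).

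**Figure D5:**
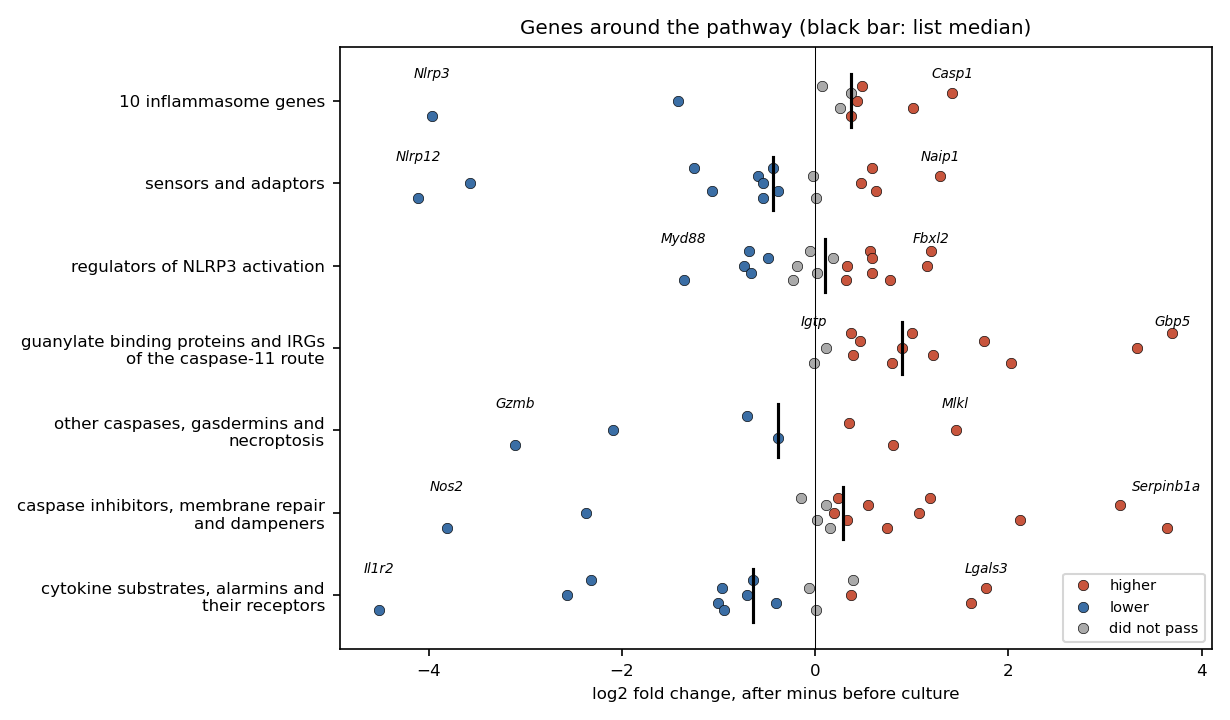
Log2 fold change after minus before culture (x axis) of the 10 genes and of the tested genes of 6 pathway lists, coloured by whether the gene passed as higher or lower, with list medians as black bars and the lowest and highest gene named. The list of guanylate binding proteins, immunity-related GTPases (IRGs) and 2 interferon regulatory factors has 11 genes higher and 0 lower, and the cytokine list runs from Il1r2 at −4.51 to Lgals3 at 1.77.

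Genes with the pattern most like those of the extreme members were sought among 11785 other genes with a mean of at least 100, by the distance of centred log2 values over the 9 samples. The closest to Nlrp3 were Mfap2 (distance 0.584), Tnfsf9 (0.606) and Trib1 (0.661), with log2 fold changes of −4.19, −3.88 and −4.09. The closest to Casp1 were Kpna3 (0.169), Dubr (0.222) and Zc2hc1a (0.227), with log2 fold changes of 1.42, 1.34 and 1.53.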

How the data were processed

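RNA of 5 samples before and 4 after culture was read from 1 table of normalized gene counts, a signal the authors deposited. DESeq2 and GRCm38 are named in the submitters' processing notes. Aligner, counter, annotation and strandedness are not given in the sources used here. All values (100%, tolerance 1e-06) were whole multiples of 1 read in their column, so reads were recovered.

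Genes with a symbol and a mean of at least 10 were fitted with limma 3.58.1 (R 4.3.3) on log2(value + 1) with a mean-variance trend, two-sided, with Benjamini-Hochberg adjustment over 18202 genes. The 3782 rows without a symbol were left out. Samples were grouped by title. Alternatives were other pseudocounts, filters and scalings, edgeR 4.0.16 and DESeq2 1.42.0 on recovered reads, blocks, a GC and length correction (lowess, for 96.5% of genes) and leaving out each sample. The GC-corrected ratios were added after seeing the data. Scripts were tested on simulated counts. The genes and lists were chosen with earlier results of these data known. Named list genes are the 2 largest rises and 2 largest falls per list that passed without overlap, with others fixed by name, and the genes nearest in pattern to the members with the largest rise and fall. Igtp, Irf1, Irf2, Gbp6, Naip6, Itgae, Mmp8, Ly6g and the untested gasdermins were named after their values were seen. Of the listed genes, 2 are not reported here and enter no list count. The labels name no batch. Symbols March7 and Irgb10 were matched as Marchf7 and Gm12250.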

Additional observations from a re-analysis of the deposited data

Results flagged for a closer look

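Of 20 group-wise checks for a sample standing apart (10 genes in 2 groups), 1 was positive, and chance gives about 1 in 20. It was Gsdme before culture, where replicate 4 had 531 normalized counts and the other 4 samples had 366 to 401. The gap to the nearest sample was 0.788 of the group's range. That library was also the lowest before culture in the summed monocyte and macrophage markers (63263) and the highest in the alveolar epithelial markers (33612, against 16399.9 to 20606 in the other 4). It was highest as well in the NK cell sum (2781, against 1319.7 to 1671) and the T cell sum (6694, against 5909 to 6059). The part of any of these in its Gsdme value was not tested.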

How the results depend on the processing

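Nlrp3, Nlrp1b, Nlrc4, Casp1 and Gsdmd kept their direction and call in all 12 alternatives with all samples and in all 9 fits that left out 1 sample. The count of lower members moved from 2 to 4 with the GC and length correction, in which Aim2 (−0.28), Casp4 (−0.17) and Gsdme (−0.23) changed sign. In that fit 11745 of all 17564 genes changed in either direction. Over fits that left out 1 sample, the limma adjusted p of Pycard reached 0.0156 and that of Casp4 0.0120. Gsdme passed with TMM scaling (0.29, limma adjusted p = 0.0385) and quantile normalization (0.35, 0.0227). Over the 12 alternatives its adjusted p ran from 0.0227 to 0.0863 and that of Ninj1 from 0.00109 to 0.169, of Aim2 from 0.0115 to 0.553, of Casp4 from 0.00137 to 0.0912 and of Pycard from 0.00135 to 0.120. Nek7 passed in all but the GC and length correction. Mefv changed sign with edgeR (−0.017), DESeq2 (−0.014), the library number as a block (−5.31e-05), the GC and length correction (−0.0033) and without 5 of the samples in turn (the 9 such fits ran from −0.110 to 0.164), never passing. Of 10 members, the number at the same place in the order per length was 4 before and 5 after culture with the longest transcript, and 4 and 3 with coding length. The cause of these shifts was not tested.

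Replicate numbers in the titles did not pair the samples (correlations of deviations from −0.213 to 0.0807). By library number they ran from 0.0447 to 0.349, and each of the 4 samples after culture correlated best with its own number, a hint from the data only. Replicate 4 before and replicate 3 after culture share library number 4. Each was lowest of its group in Ninj1 (1178 and 1662) and in the monocyte and macrophage sum (63263 and 31546). Each was highest in the alveolar epithelial sum (33612 and 6844). No label says whether they share an animal. With the title number as a replicate block 11646 genes changed, and with the library number 12836, against 12524 without. Among the 10 members, Ninj1 alone changed its call under a block, passing with the library number (0.38, limma adjusted p = 0.00109). Of the 31 pathway genes also refitted with a block, 1 changed its call, Il1rn, which passed there (0.38, 0.0240). Of all pathway genes, 36 were higher and 27 lower with the title number, and 41 and 30 with the library number. All 10 genes had at least 209 reads in every sample, whereas 9 of 93 pathway genes were too low to test.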
